A study of Mus musculus with 6 samples.

Results

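The PPAR and RXR nuclear receptors are the 6 genes Pparg, Ppara, Ppard, Rxra, Rxrb and Rxrg. On the array used here they were read by 11 probe sets, taken as every probe set other than the array's own controls whose single annotated gene symbol is one of these names. They are 11 of 45037 such probe sets and 6 of 18193 genes with a single symbol. Transcripts were measured in the epididymal white fat pad of 10-week-old male mice of a mixed C57BL6;129Sv background. The mice either carried 1 ldi allele of Pparg (Pparg ldi/+, 3 mice), which the labels connect with lipodystrophy, or were litter-matched wild types (3 mice). Each mouse gave 1 Affymetrix MOE430v2.0 array. The sources used here do not describe the ldi alteration or place the Pparg probes against it, and the Pparg signal cannot be divided between the ldi and the wild-type allele.

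PPARs are ligand-activated transcription factors that bind DNA as a pair with an RXR. The element they recognise is a repeat of AGGTCA with a single base between the copies. PPARG drives the formation of fat cells and keeps their lipid-storage genes active, PPARA and PPARD are best known for genes of fatty acid oxidation, and the RXRs also pair with the receptors for oxysterols, retinoic acid, thyroid hormone and vitamin D. Adipocytes are the main site of Pparg expression in fat, and macrophages express it as well.

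Values below are signals scaled so that every array has a trimmed mean of 500. Differences are of log2(signal + 32), Pparg ldi/+ minus wild type, and folds come from them, so changes of dim probe sets are understated. Rose and fell mean a limma Benjamini-Hochberg adjusted p under 0.05 over the 22519 probe sets tested. These had a mean log2 value of at least 7.465, the median of all probe sets. The files hold no detection calls, so a dim value here is not shown to be above background.

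The arrays were near a common scale, with deposited medians of 64.5 to 69.4 in Pparg ldi/+ and 59.2 to 64 in wild type. Adipocyte markers were present on all 6 arrays: the summed signal of 8 was 69951 to 79061 in Pparg ldi/+ fat and 140190 to 159840 in wild-type fat, with 7 falling and Fabp4 not passing. All 14 macrophage markers rose, with sums of 111394 to 114173 in Pparg ldi/+ and 42163 to 54822 in wild type. Lymphocyte markers summed to 2409 to 2910 in Pparg ldi/+ and 715.4 to 998.5 in wild type (3 of 4 tested rose). Of 10 endothelial markers, 8 fell, with sums of 9812 to 11605 in Pparg ldi/+ and 20706 to 22663 in wild type. Of 7 mesothelial markers, 5 fell, with sums of 5797 to 6616 in Pparg ldi/+ and 9888 to 12097 in wild type. The sum of 9 epididymal markers was 18714 and 26098 on Pparg ldi/+ arrays 1 and 2 and 572.3 on array 3. In wild type it was 417.3 to 1005, so arrays 1 and 2 stand apart. Both were above every wild-type array in 7 of the 9 markers. Array 3 was above every wild-type array in 4, so it is not shown to be free of that tissue. Because arrays 1 and 2 stand apart, results are also given from Pparg ldi/+ array 3 set against the 3 wild types. In a whole fat pad, fewer cells of a type and less RNA per cell cannot be told apart, and the part that this change of cell markers has in the receptor results was not tested.

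Of the 11 probe sets of the 6 receptors, 6 were bright enough to be tested and 4 of these fell: those of Pparg and Ppard and both brighter ones of Rxra. None rose (0). By comparison, 14.5% of all tested probe sets fell and 14.5% rose. The 2 that did not pass were those of Rxrb and Rxrg. Counting dim probe sets too, the arrays of the genotypes did not overlap in 7 of 11, all lower in Pparg ldi/+, where 14.7% of all 45037 probe sets were lower in this way. The plot of each probe set by array shows the separation of Pparg, Ppara and Rxra, and the mixing of Rxrb and Rxrg.

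**Figure D1:**
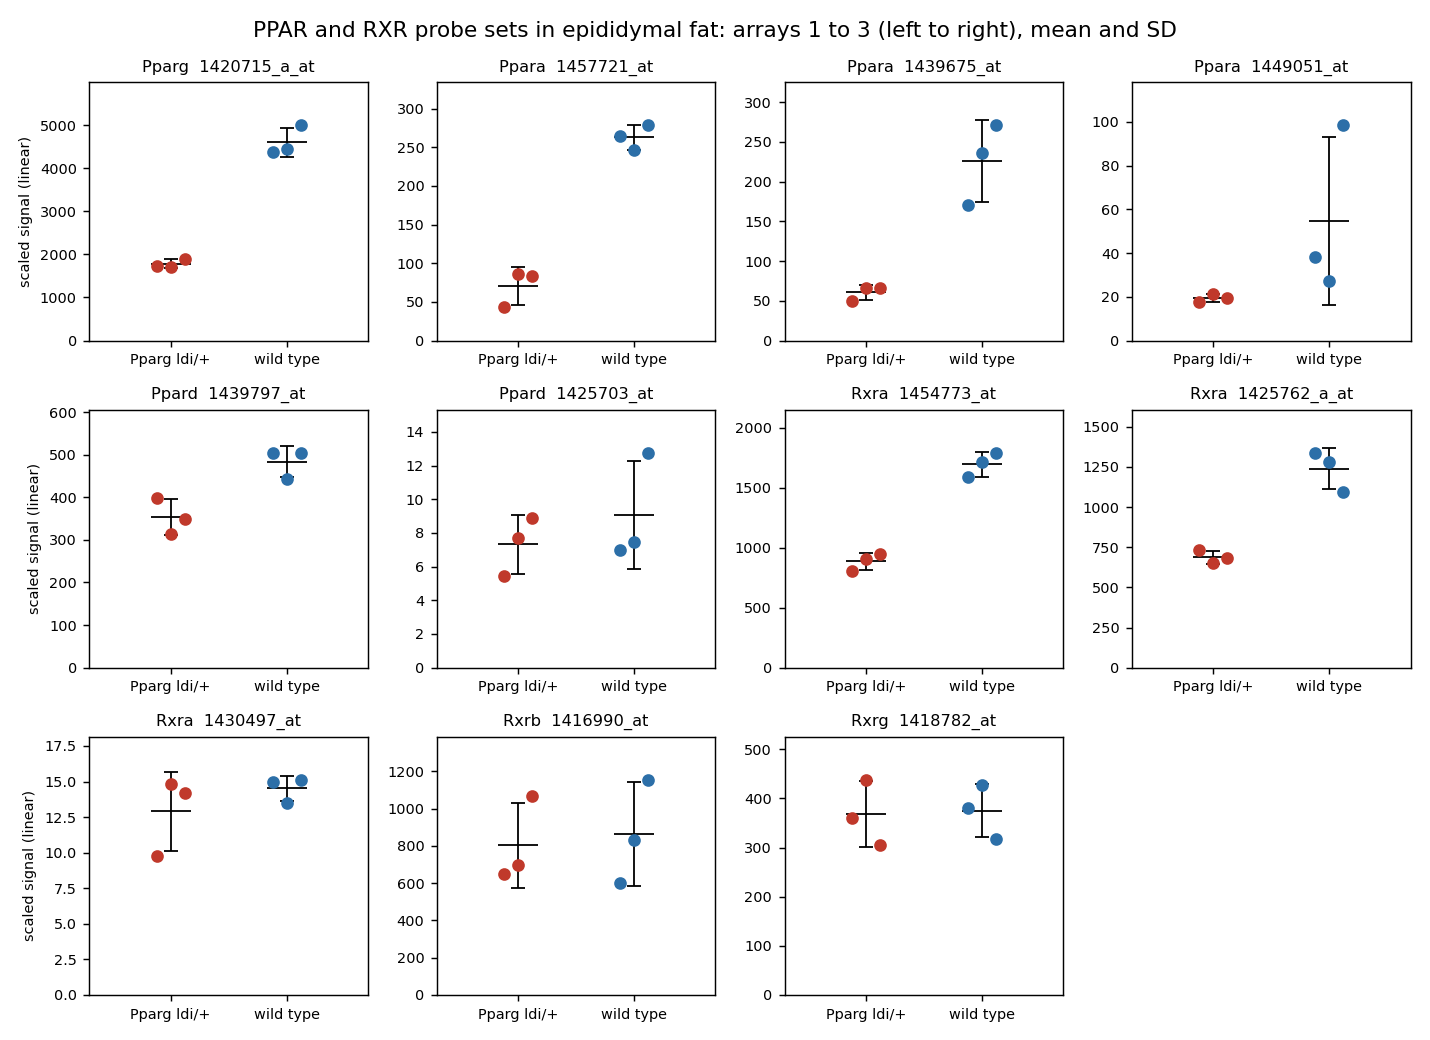
Scaled signal (linear, from 0; each panel has its own axis) of the 11 probe sets on arrays 1 to 3 of Pparg ldi/+ (red, left) and wild-type (blue, right) fat; horizontal bars are means and whiskers SD (n = 3). The Pparg ldi/+ arrays of Pparg lie between 1709 and 1901, below all wild-type arrays, while the arrays of Rxrb and Rxrg mix. The small numbers of the dimmest probe sets (Ppard 1425703_at, Rxra 1430497_at) should not be read as levels of the transcript.

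Pparg, the receptor gene that carries the ldi allele, was read by 1 probe set, 1420715_a_at. Its signal was 1732, 1709 and 1901 in the 3 Pparg ldi/+ fat pads, against 4378, 4440 and 4998 in the wild-type fat pads. The genotypes were far apart, with a spread within each that was small beside the gap. Pparg averaged 1781 ± 104.5 in Pparg ldi/+ and 4605 ± 341.2 in wild type (SD, n = 3 each), a log2 difference of -1.35 (95% confidence interval -1.55 to -1.16, limma adjusted p = 1.059e-05). It was the 377th largest fall of 22519. With Pparg ldi/+ array 3 alone the difference was -1.26 (limma adjusted p = 0.00172).

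Pparg has several starts, and 3 are listed in RefSeq annotation of GRCm38.p6. The third lies 60922 bases after the first. The 250 bases upstream of the first and the third are shown, because one array signal pools transcripts of all starts it can detect and the windows differ in kind. Capitals mark AGGTCA, the single element of PPAR and RXR sites; TTNNGCAA, a form that C/EBP factors can bind; and GGGCGG, the GC box, each on either strand.
Pparg start 1, chr6:115360894-115361143, + strand: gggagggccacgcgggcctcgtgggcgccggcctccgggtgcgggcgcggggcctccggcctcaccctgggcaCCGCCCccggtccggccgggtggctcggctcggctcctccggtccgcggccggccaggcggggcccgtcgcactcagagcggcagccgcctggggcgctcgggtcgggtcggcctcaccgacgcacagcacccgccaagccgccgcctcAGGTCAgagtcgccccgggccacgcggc
Pparg start 3, chr6:115421816-115422065, + strand: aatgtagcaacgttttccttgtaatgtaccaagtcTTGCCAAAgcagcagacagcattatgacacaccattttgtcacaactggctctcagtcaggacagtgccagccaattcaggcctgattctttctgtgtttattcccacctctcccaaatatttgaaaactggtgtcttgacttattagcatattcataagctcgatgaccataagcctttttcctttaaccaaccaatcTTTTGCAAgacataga
The first window is 82.4% G and C and holds 1 AGGTCA, which begins 28 bases before the start, and 1 GC box. The third is 40.8% G and C, lacks both, and holds 2 matches to TTNNGCAA, which begin 215 and 16 bases before the start. Of 32851 RefSeq windows of this length, 14.0% hold AGGTCA, 9.56% hold TTNNGCAA and 32.7% hold GGGCGG. These are letter matches, and no binding was measured.

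Ppara, the receptor of fibrate drugs and a regulator of fatty acid oxidation, was dim in this fat but lower in every Pparg ldi/+ array. Its brightest probe set, 1457721_at, read 42.81, 86.14 and 83.66 in Pparg ldi/+ fat, against 264, 246.3 and 278.3 in wild-type fat. The second, 1439675_at, read 49.83, 65.84 and 65.87 in Pparg ldi/+ fat, against 170.2, 236.6 and 270.9 in wild-type fat. In both, the highest Pparg ldi/+ array was below the lowest wild-type array. The mean log2 value of 1457721_at was 7.428, just under the limit of 7.465, and that of 1439675_at was 7.259, so neither was tested.

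In a fit with no limit on dim probe sets both fell. The differences were -1.55 for 1457721_at (2.92-fold, interval -2.10 to -0.996, limma adjusted p = 0.003753) and -1.46 for 1439675_at (2.76-fold, interval -2.01 to -0.92, limma adjusted p = 0.004614). In that fit 6.48% of 45037 probe sets fell. The third probe set of Ppara, 1449051_at, read 17.44, 21.04 and 19.49 in Pparg ldi/+ fat, against 38.14, 27.04 and 98.35 in wild-type fat. The genotypes did not overlap there either, but 1 wild-type array was far above the other two, and the difference of -0.67 did not pass (limma adjusted p = 0.2294) and was -0.33 without that array. The size of the Ppara difference depends on the offset: for 1457721_at it was -1.10 with 100 added and -1.96 with signals under 32 set to 32. With Pparg ldi/+ array 3 alone the differences of the brighter probe sets were -1.35 and -1.38; most arrays of that fit are wild types, where Ppara is high, so passing the limit there is no support and no call is given.

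RefSeq lists 1 start of Ppara, shown because it was the other PPAR gene with a large difference.
Ppara, chr15:85735526-85735775, + strand: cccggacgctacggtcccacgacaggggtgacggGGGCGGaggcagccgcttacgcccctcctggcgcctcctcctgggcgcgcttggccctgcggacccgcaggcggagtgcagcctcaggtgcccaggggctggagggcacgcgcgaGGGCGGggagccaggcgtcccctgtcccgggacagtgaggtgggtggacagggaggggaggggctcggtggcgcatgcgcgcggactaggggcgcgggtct
The window is 76.4% G and C and has 2 GC boxes and neither AGGTCA nor TTNNGCAA.

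Ppard, the receptor of this family found in most tissues, differed least among the PPARs. Its probe set 1439797_at read 397.7, 313.1 and 349.1 in Pparg ldi/+ fat, against 504, 441.9 and 505 in wild-type fat. The genotypes did not overlap, although the gap between the nearest arrays was small. Ppard averaged 353.3 ± 42.46 in Pparg ldi/+ and 483.6 ± 36.16 in wild type (SD, n = 3 each) and fell by 0.42 on the log2 scale (1.34-fold, interval -0.72 to -0.13, limma adjusted p = 0.0382). The call ended when Pparg ldi/+ array 2 was left out (-0.35, limma adjusted p = 0.121) or array 3 (-0.42, limma adjusted p = 0.0975). It also ended without wild-type array 1 (-0.39, limma adjusted p = 0.0999) or array 3 (-0.39, limma adjusted p = 0.0927), and with Pparg ldi/+ array 3 alone (-0.43, limma adjusted p = 0.218). It did not pass with unscaled signals (-0.34, limma adjusted p = 0.115) or with no limit on dim probe sets (limma adjusted p = 0.07006). The other probe set of Ppard, 1425703_at, lay between 5.436 and 8.896 in Pparg ldi/+ and between 6.979 and 12.77 in wild type, among the dimmest 3.33% of the array.

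Rxra, the RXR that pairs with PPARG in fat cells, fell in both probe sets that could be tested. Probe set 1454773_at read 810.2, 905.7 and 944.2 in Pparg ldi/+ fat, against 1586, 1712 and 1794 in wild-type fat. Probe set 1425762_a_at read 731.8, 652.5 and 679.7 in Pparg ldi/+ fat, against 1339, 1282 and 1096 in wild-type fat. The genotypes were clearly separate in both, and the order of arrays within a genotype differed between them.

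The differences of Rxra were alike in size: -0.91 for 1454773_at (1.88-fold, interval -1.14 to -0.69, limma adjusted p = 0.0001817) and -0.82 for 1425762_a_at (1.76-fold, interval -1.06 to -0.57, limma adjusted p = 0.000611). With Pparg ldi/+ array 3 alone they were -0.82 and -0.83 (limma adjusted p = 0.0139 and 0.0226). The third probe set, 1430497_at, lay between 9.739 and 14.85 in Pparg ldi/+ and between 13.52 and 15.13 in wild type and was not tested. Averaging it in with the others gave -0.59 for the gene, which still passed (limma adjusted p = 0.00185).

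RefSeq lists 2 starts of Rxra. The window of the first is shown for comparison with those of its PPAR partners.
Rxra start 1, chr2:27676951-27677200, + strand: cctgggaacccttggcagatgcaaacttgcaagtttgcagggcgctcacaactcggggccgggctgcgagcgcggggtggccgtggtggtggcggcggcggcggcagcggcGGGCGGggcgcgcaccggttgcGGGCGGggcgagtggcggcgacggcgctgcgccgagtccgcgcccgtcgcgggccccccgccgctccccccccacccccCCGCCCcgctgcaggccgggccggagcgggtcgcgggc
It is 81.2% G and C with 3 GC boxes. The window of the second start, at 55.2% G and C, has no GC box and holds AGGTCA at 2 places, which begin 87 and 48 bases before it. The complete repeat, AGGTCANAGGTCA, which contains AGGTCA, was in none (0) of the 11 windows of the 6 genes, and in 11 of all 32851 (0.0335%). Also searched on both strands were CCAAT, in 4 of the 11 windows and 33.8% of all, and TATAAA, in 1 of the 11 and 12.4% of all.

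Rxrb, an RXR found in most tissues, did not pass. Its probe set 1416990_at read 646.9, 695.8 and 1066 in Pparg ldi/+ fat, against 598, 832.4 and 1155 in wild-type fat. The arrays of the genotypes mixed, and array 3 was the highest in each. The difference was -0.08 with an interval of -0.64 to 0.47 (limma adjusted p = 0.8343), so a change of Pparg's size lies outside the interval while one of Ppard's size lies within it. With Pparg ldi/+ array 3 alone it was 0.35 (limma adjusted p = 0.561).

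Rxrg, the RXR best known from muscle and brain, did not pass either. Its probe set 1418782_at read 360.8, 438.1 and 305.9 in Pparg ldi/+ fat, against 380.9, 426.8 and 318 in wild-type fat. The highest and the lowest of the 6 arrays were both Pparg ldi/+. The difference was -0.03 with an interval of -0.40 to 0.34 (limma adjusted p = 0.9157), and with Pparg ldi/+ array 3 alone it was -0.26 (limma adjusted p = 0.55). The summed signal of 10 skeletal muscle markers did not separate the genotypes, at 1604 to 2314 in Pparg ldi/+ and 1271 to 3060 in wild type. Only 3 of the 10 were bright enough to be tested, and 1 of these rose.

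**Figure D2:**
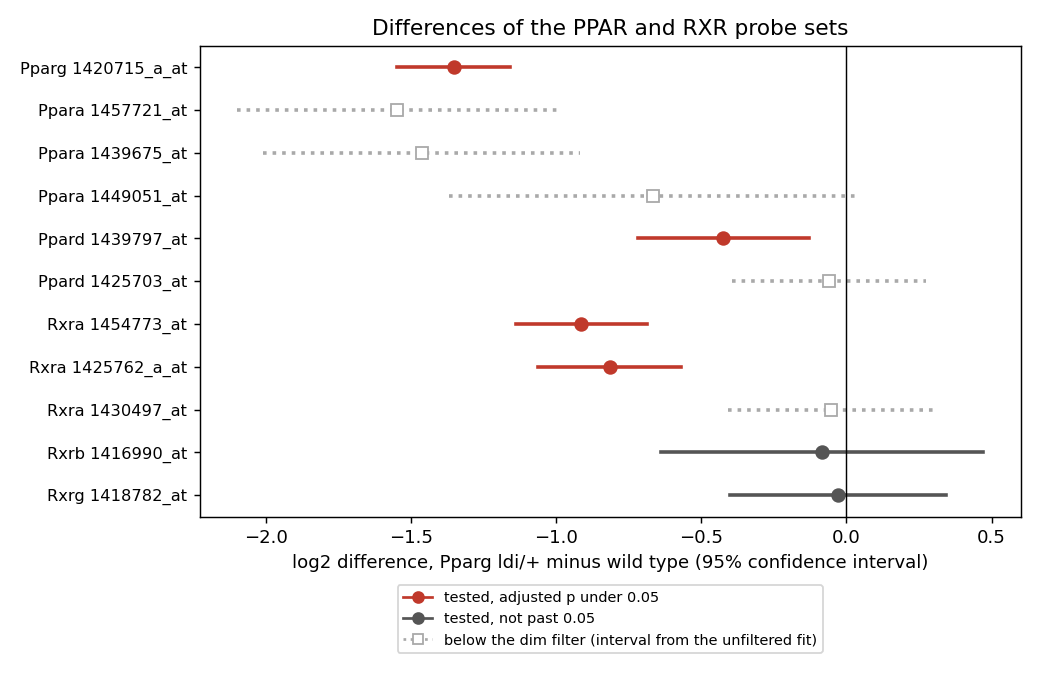
Log2 difference (Pparg ldi/+ minus wild type) of each probe set with its 95% confidence interval; red marks probe sets that fell, dark grey tested ones that did not pass, and open squares with dotted lines those too dim to be tested, with intervals from the fit without a limit. Pparg (-1.35) and the brighter Ppara probe sets (-1.55 and -1.46) lie farthest from 0, Rxra at -0.91 and -0.82, and the intervals of Rxrb and Rxrg span 0.

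Whether Pparg changed by more than its relatives was asked within each array, from the difference in log2 signal between the Pparg probe set and the brightest probe set of each other gene. The log2 change of Pparg minus that of the other gene was -0.93 for Ppard, -0.44 for Rxra, -1.27 for Rxrb and -1.325 for Rxrg. In these 4 comparisons the genotypes did not overlap, and each had an exact two-sided permutation p of 0.1 (0.125 adjusted over 5 comparisons), the smallest that 3 against 3 arrays allow. For Ppara it was 0.19 with overlapping arrays (exact permutation p = 0.5), and its sign turned with 100 added (-0.23).

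The signals most like each receptor over the 6 arrays were named by Pearson's r, as a description. For a receptor that changed with genotype, r is high with any gene that changed clearly in the same direction. Closest to Pparg were Sspn (r = 0.9988), Cdk16 (r = 0.9987) and Pdzrn3 (r = 0.9982), among 1321 other tested probe sets with r above 0.95. For Rxra they were Tmeff1 (r = 0.9986), Fermt2 (r = 0.9973) and Rgs7bp (r = 0.9973), among 1161. For Ppard they were Aff3 (r = 0.9986), Ppp4r3b (r = 0.9983) and Rc3h1 (r = 0.9970), among 215. Those of Rxrb were Yipf4 (r = 0.9920), Sap30bp (r = 0.9872) and Cux1 (r = 0.9809), among 16. Those of Rxrg were Ska2 (r = 0.9917), Mlkl (r = 0.9858) and Gtf2e1 (r = 0.9808), among 11. The genes named for Rxrb and Rxrg did not pass, with differences of -0.083 to 0.037, and neither did Rc3h1 (-0.147). With each genotype centred on its mean, r was 0.983 to 0.998 for those of Rxrb and 0.982 to 0.998 for those of Rxrg. It was 0.986 to 0.993 for those of Ppard, so these likenesses lie also in the order of arrays within a genotype. The brightest probe set of Ppara was below the limit and was not compared.

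The genes around the receptors were read by the brightest probe set of each. Of 11201 genes tested in this way, 1787 fell and 1783 rose (31.9% in all), with a median difference of -0.004. Coactivators, which receptors recruit to switch genes on, fell in 4 of 18 and rose in 0, with a median of -0.07. Ncoa2, a coactivator of the p160 family, averaged 876 ± 38.35 in Pparg ldi/+ and 1311 ± 46.9 in wild type (log2 -0.565, limma adjusted p = 0.001608). Carm1, a histone arginine methyltransferase, was at -0.53 (limma adjusted p = 0.00497) and Smarcd3, a subunit of chromatin remodelling complexes, at -0.62 (limma adjusted p = 0.01941). The mean of its probe sets ended the call of Ncoa2 (-0.19, limma adjusted p = 0.183). The call of Smarcd3 ended without Pparg ldi/+ array 3 (-0.535) or wild-type array 3 (-0.47), and neither Smarcd3 (-0.79) nor Carm1 (-0.43) passed with Pparg ldi/+ array 3 alone. Ppargc1a, the coactivator tied to mitochondrial genes, was at 0.14 and did not pass (limma adjusted p = 0.6065).

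Corepressors fell in 4 of 11 tested and rose in 0, with a median of -0.29. Nrip1, a corepressor of nuclear receptors in fat, averaged 1321 ± 239.9 in Pparg ldi/+ and 3912 ± 294.5 in wild type (log2 -1.555, 2.94-fold, limma adjusted p = 3.802e-05). Tbl1x, a subunit of the NCOR and SMRT complexes, was at -0.76 (limma adjusted p = 0.000107). Among 8 other receptors that pair with RXR or are grouped with its partners, Nr1h3, the oxysterol receptor LXR alpha, fell by 0.68 (limma adjusted p = 0.00497) and Nr4a1, an early-response orphan receptor, rose by 0.475 (limma adjusted p = 0.02054). The call of Nr4a1 ended without Pparg ldi/+ array 1 (0.38) or array 2 (0.48) or wild-type array 1 (0.44), and with Pparg ldi/+ array 3 alone (0.30). The remaining 6 did not pass, and the median was -0.29.

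Of 11 enzymes that modify PPARs, 1 fell and 1 rose, with a median of 0.06. Nedd4, a ubiquitin ligase, averaged 6588 ± 135.8 in Pparg ldi/+ and 11287 ± 393.3 in wild type (log2 -0.77, limma adjusted p = 3.463e-05). Pias1, a SUMO ligase, rose by 0.49 (limma adjusted p = 0.02748), a call that ended when any array but wild-type array 3 was left out, with differences of 0.39 to 0.52, and with Pparg ldi/+ array 3 alone (0.41). Cdk5, a kinase that phosphorylates PPARG, was at 0.15 and did not pass (limma adjusted p = 0.4189).

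Genes that supply or carry lipid and retinoid ligands went both ways, with 4 of 20 falling, 4 rising and a median of -0.09. Rbp4, the carrier of retinol, averaged 2598 ± 904.7 in Pparg ldi/+ and 18638 ± 911.9 in wild type (log2 -2.88, 7.37-fold, limma adjusted p = 1.666e-05). Lipe, the hormone-sensitive lipase that frees fatty acids, fell by 1.60 (limma adjusted p = 3.773e-06), and by 0.66 as the mean of its probe sets (limma adjusted p = 0.00273). Hpgds, the blood-cell form of prostaglandin D synthase, averaged 562.9 ± 29.03 in Pparg ldi/+ and 105.8 ± 14.5 in wild type (log2 2.115, 4.33-fold, limma adjusted p = 1.506e-05). Its wild-type signals were dim, so Hpgds passed the limit through the Pparg ldi/+ arrays. With no limit on dim probe sets it rose by 2.115 as well (limma adjusted p = 8.41e-05). It moved with the macrophage markers given above, whose part in it was not tested. With Pparg ldi/+ array 3 alone the differences were -3.35 for Rbp4, -1.71 for Lipe and 2.14 for Hpgds, all past the threshold.

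Target genes were listed by receptor. Among 23 tested genes listed here as switched on by PPARG in fat cells, 17 fell and 0 rose, with a median of -0.755. The response of each listed gene to PPARG was not tested in these data. Of 18 fatty acid oxidation and related targets of PPARA and PPARD, 4 fell and 6 rose, with a median of -0.10. Of 11 targets of the LXR and retinoic acid receptors, 4 fell and 1 rose, with a median of -0.11. With Pparg ldi/+ array 3 alone, 13 of 23, 1 of 18 and 0 of 11 fell and 0, 4 and 1 rose, where 7.49% of 11155 genes fell and 6.30% rose. The PPARG list shares 7 genes with the adipocyte markers and 3 with the PPARA and PPARD list. It shares 5 with the ligand list, which itself shares 3 with the adipocyte markers. Lipe is on the PPARG list, the ligand list and the adipocyte list, so these counts are not independent.

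In the PPARG list, Retn, the resistin gene, averaged 1471 ± 247.4 in Pparg ldi/+ and 20259 ± 1587 in wild type (log2 -3.76, limma adjusted p = 2.936e-07). Plin4, a lipid droplet coat gene, was at -1.82 (limma adjusted p = 1.591e-06). Ucp1, the uncoupling protein of brown fat and also on this list, was too dim to be tested and went the other way. It read 308, 127.5 and 119.7 in Pparg ldi/+ fat, against 10.47, 56.11 and 6.383 in wild-type fat, without overlap. In the fit with no limit on dim probe sets, where 6.84% of all rose, it rose by 1.95 (limma adjusted p = 0.01949). Of 6 tested brown adipocyte markers, 1 fell and 1 rose, with a median of -0.011. The sum of 9 such markers, Ucp1 among them, was 4146 to 4592 in Pparg ldi/+ and 2650 to 4008 in wild type. Among the oxidation targets, Cpt1a, which admits fatty acids to mitochondria, averaged 3985 ± 190 in Pparg ldi/+ and 2034 ± 174.7 in wild type (log2 0.96, limma adjusted p = 7.209e-05). Hadha, of the mitochondrial trifunctional protein, rose by 0.68 (limma adjusted p = 0.0002191), and Fabp3, a fatty acid binding protein of muscle, rose by 1.315 (limma adjusted p = 0.01002).

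Ehhadh, a peroxisomal oxidation enzyme and a classic PPARA target in liver, went the other way: it averaged 320.3 ± 79.62 in Pparg ldi/+ and 872.9 ± 89.16 in wild type (log2 -1.38, limma adjusted p = 0.0003568). The LXR targets were split as well. Abcg1, a cholesterol exporter, rose by 0.81 (limma adjusted p = 0.001476), while Abca1, another exporter, fell by 0.37 (limma adjusted p = 0.002223) and Srebf1, the lipogenic regulator, fell by 0.50 (limma adjusted p = 0.01232). Neither Abca1 (-0.35) nor Srebf1 (-0.63) passed with Pparg ldi/+ array 3 alone, and Abca1 (-0.31) did not with unscaled signals. Macrophages also express Abcg1, and their markers rose as given above. The part of macrophages in the differences of these LXR targets was not tested.

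**Figure D3:**
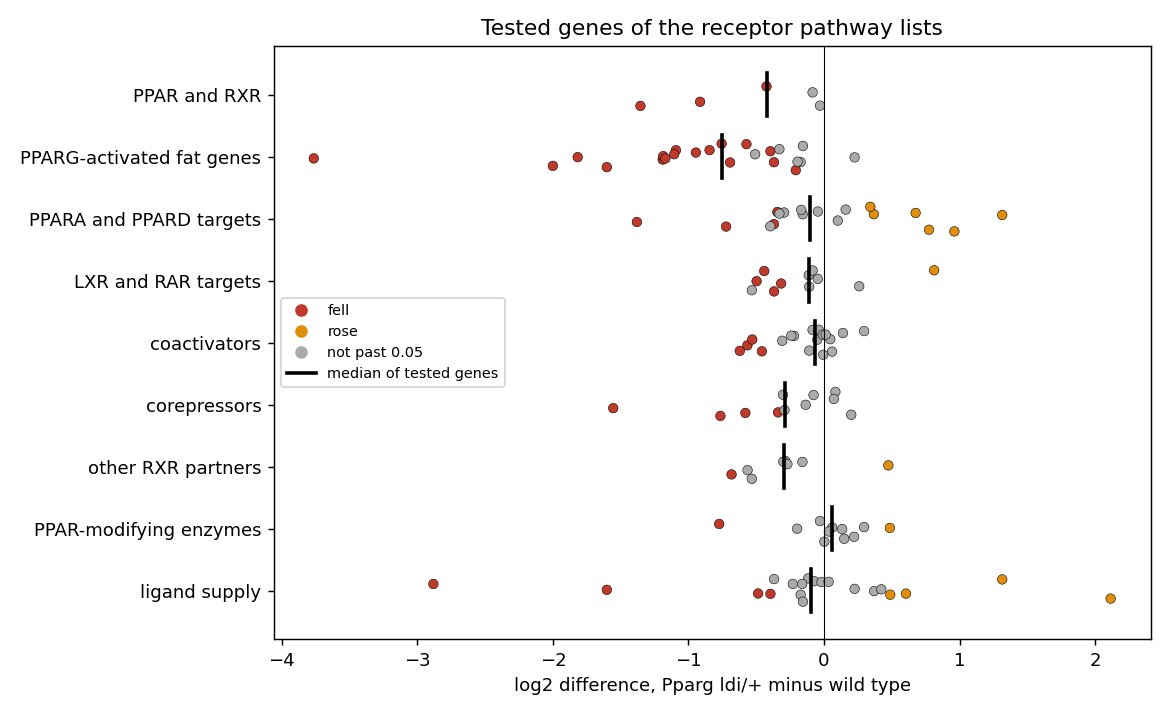
Log2 difference (Pparg ldi/+ minus wild type) of each tested gene, a point per gene, by list; red fell, orange rose, grey did not pass, and the black bar is the list's median. The genes listed as PPARG-activated lie mostly below 0 (median -0.755), while the PPARA and PPARD targets lie on both sides (median -0.10). Vertical scatter within a list has no meaning.

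The receptor differences under every setting tried are shown in the plot of other settings. Pparg lay between -1.40 and -1.26, and Ppara 1457721_at between -1.96 and -1.10. Rxra 1454773_at lay between -0.96 and -0.59 and 1425762_a_at between -0.90 and -0.73, while Rxrb and Rxrg lay on both sides of 0.

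**Figure D4:**
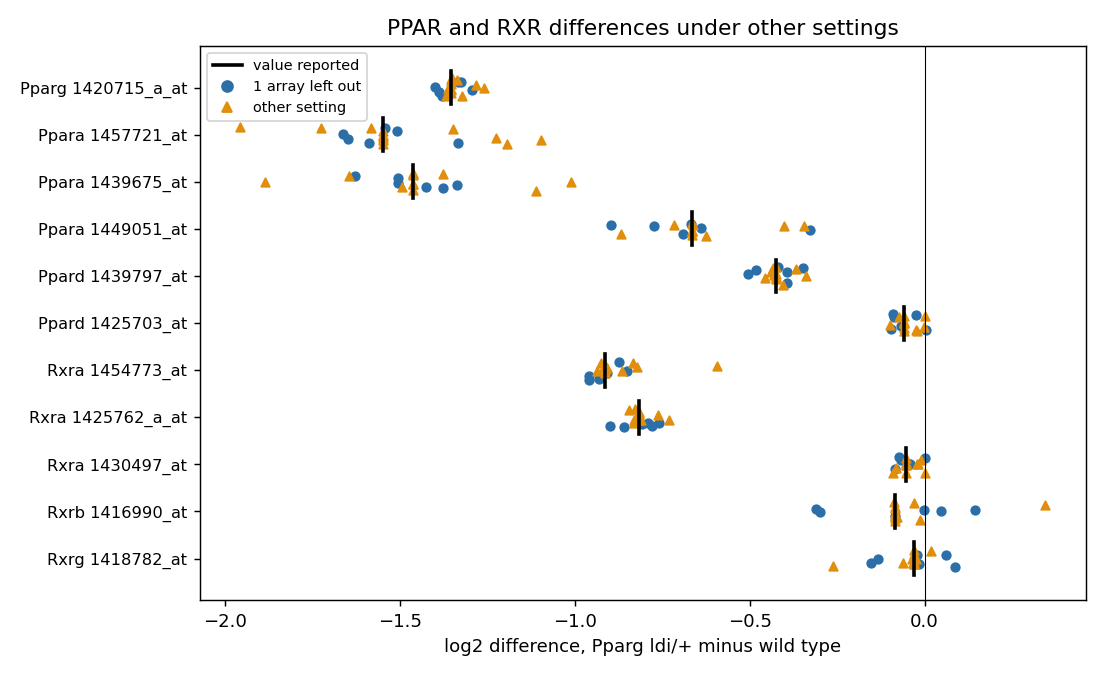
Log2 difference (Pparg ldi/+ minus wild type) of each probe set as reported (black bar), with 1 array left out (blue circles) and under the other settings (orange triangles: offset, scaling, filter, variance model, block, mean of probe sets, Pparg ldi/+ array 3 alone). Pparg stays between -1.40 and -1.26, while Rxrb ranges from -0.31 to 0.35.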

How the data were processed

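RNA of 6 fat pads, 1 mouse each, was measured on Affymetrix MOE430v2.0 arrays. The authors deposited 1 signal intensity on a linear scale for each probe set, made with MAS5 per the submitters' processing notes, which name it for 2 of the 6 samples. No source used here gives its version or scaling target. The 64 control probe sets of 45101 were dropped. By the platform annotation the rest had 1 symbol in 34945 cases, several in 932 and none in 9160; symbols were updated through gene numbers for 34741.

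Signals were multiplied by 2.118 to 2.493 so that the mean of an array, less its outer 2% at both ends, was 500; 32 was added and log2 taken here. Probe sets with a mean log2 of at least 7.465 were tested with limma 3.58.1 in R 4.3.3 (lmFit, eBayes with intensity trend, two-sided, no covariates), with Benjamini-Hochberg adjustment over all 22519. The method was tested on simulated data. A gene of a list was read by its brightest probe set, leaving out x_at sets where another existed.

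Members and lists were chosen with earlier results of these data known. Genes named from each list were the 2 called with the smallest p and the largest called change in each direction; Ppargc1a, Cdk5, Fabp4 and Ucp1 fall outside this rule and were picked with values known. The 3 most alike genes per receptor were taken by Pearson's r. Promoter windows are RefSeq sequences of GRCm38.p6, found for all 6 genes. The labels do not say whether the title numbers pair the mice. Deviations of same-numbered arrays correlated at -0.112, -0.078 and -0.065, and those of other pairs at 0.023 to 0.063. With so few arrays these values cannot decide whether mice were paired. Alternatives changed offset, scaling, filter, variance model, array weights, threshold, probe set choice and block, and left out each array; the comparison with Pparg ldi/+ array 3 alone was added after the data were seen, and assumes that array to vary like the wild types.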

Additional observations from a re-analysis of the deposited data

How the results depend on the processing

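The calls of Pparg and of both brighter Rxra probe sets held under every alternative run, and that of Ppard did not (above). Of all probe sets, 3273 fell and 3258 rose, against 1996 and 1917 at a threshold of 0.01, 1504 and 1222 with Pparg ldi/+ array 3 alone, and 2553 to 2901 and 2278 to 2982 with 1 array left out. The genes of the pathway lists numbered 36 that fell and 12 that rose, against 21 and 7 with array 3 alone; fewer arrays enter that fit. The 4 member probe sets that fell became 3 to 5 with 1 array left out. In the fits without a Pparg ldi/+ array, this count includes the brightest probe set of Ppara. Among the fits with 1 array left out, only those had it bright enough to be tested. Most arrays there are wild types, where Ppara is high, so its passing is no support. Without Pparg ldi/+ array 2 or array 3 it took the place of Ppard in the count. The change of Pparg less that of Ppara was 0.19, against -0.23 with 100 added, -0.087 with unscaled signals, and -0.002 to 0.34 with 1 array left out; the cause was not tested. Rxrb, at -0.08, was at 0.35 with array 3 alone and at -0.31 to 0.14 with 1 array left out. Rxrg, at -0.03, was at 0.017 with unscaled signals, -0.26 with array 3 alone and -0.15 to 0.087 with 1 array left out. The replicate block uses the title numbers, which the labels do not give as a pairing. With it, 2852 probe sets fell and 2845 rose. Of the member probe sets 3 fell, and Ppard was at a limma adjusted p of 0.0524. List medians near 0 moved by a large share of their size under some settings, and that of the modifying enzymes (0.06) was -0.02 with array 3 alone. The number of arrays and the dim signals of Ppara limit the precision.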
